A study of Caenorhabditis elegans with 3 samples.

Results

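The genes described here are 10 genes of germline histone methylation in Caenorhabditis elegans, chosen by name and found by their WBcel235 symbols among 19985 protein-coding genes. They are mes-2, mes-3 and mes-6 for methylation of lysine 27 of histone H3 (H3K27), mes-4, met-1 and mrg-1 for H3K36, set-1 for H4K20, and set-2, wdr-5.1 and ash-2 for H3K4. The question was where DPL-1, the DP protein that binds DNA as a partner of E2F, sat at their promoters. Chromatin immunoprecipitation with an anti-GFP antibody and sequencing (ChIP-seq) had been done in 3 biological replicates of 1 group. The animals were whole hermaphrodites at the young adult stage, strain YL507, a transgenic line with DPL-1 fused at its C-terminus to GFP-FLAG. The labels do not say whether the untagged dpl-1 gene was still present, and no input or untagged sample was analysed here. Whole animals mix germline and soma, so binding in few cells and weak binding in many cannot be told apart. The peak lists used, all on build ce11, were relaxed lists, in which weak peaks and background regions remain, and a single list thresholded by irreproducible discovery rate (IDR), a measure of how reproducibly peaks rank between replicates. The relaxed lists held 28383 regions for replicate 1 and 30000 each for replicates 2 and 3 and for the pooled reads, and the IDR list held 3295. The sequencing depth is unknown.

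MES-2, MES-3 and MES-6 form the worm's Polycomb repressive complex, in which MES-2 is the enzyme (an Enhancer of zeste homologue) and MES-6 resembles the Drosophila protein ESC. The complex methylates H3K27 and is known for silencing the X chromosomes in the germline. MES-4 is an H3K36 methyltransferase that carries the memory of germline-expressed autosomal genes to the embryo, MET-1 is the H3K36 methyltransferase that travels with RNA polymerase II, and MRG-1 is a chromodomain protein related to human MRG15. SET-2 is the enzyme of the worm's COMPASS complex, which methylates H3K4, and WDR-5.1 and ASH-2 are 2 of its shared subunits. SET-1 adds a single methyl group to H4K20. E2F-DP dimers are known to bind GC-rich sites near the starts of cell cycle and germline genes, and in worms they do so also within the DREAM complex, whose subunit LIN-54 recognises a separate AT-rich element.

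The sequences below lie within 50 bp of a DPL-1 summit, the base of highest signal in a peak, except the last, and are read along the strand of the gene from 5′ to 3′. Capitals mark matches, on either strand, to an E2F-like motif (TTCCCGC or TTCGCGC or TTGCCGC or TTGGCGC) or to the CHR element (TTCGAA or TTTGAA). They are shown because their matches differ. The mes-2 summit is the only member summit with an E2F-like match in this window. The mrg-1 summit is the strongest and has no match in this window, though a CHR match lies 54 bp away. The weaker ash-2 summit has CHR matches and the stronger one none, and mes-4 has a match but no peak. Of all IDR summits at 5' ends, 17.9% have an E2F-like match in such a window and 31.2% a CHR match. For windows of this length centred 150 bp upstream of the 5' ends of all genes, the shares are 3.57% and 34.1%. Bases in annotated untranslated regions were left out, which shortened the mes-6 and the first ash-2 stretch. The stretches are chrII:14383802-14383902 on the plus strand for mes-2, chrIV:8511199-8511283 on the plus strand for mes-6, chrIII:12874849-12874949 on the minus strand for mrg-1, chrIII:4930427-4930527 on the minus strand for set-2, chrII:11979845-11979916 and chrII:11980270-11980370 on the plus strand for ash-2, and chrV:13437645-13437745 on the minus strand for mes-4, centred 150 bp upstream of its 5' end.
mes-2: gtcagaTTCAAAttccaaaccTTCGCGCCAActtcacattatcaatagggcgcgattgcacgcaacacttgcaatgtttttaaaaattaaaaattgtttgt
mes-6: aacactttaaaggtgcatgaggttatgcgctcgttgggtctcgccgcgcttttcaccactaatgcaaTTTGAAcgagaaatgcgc
mrg-1: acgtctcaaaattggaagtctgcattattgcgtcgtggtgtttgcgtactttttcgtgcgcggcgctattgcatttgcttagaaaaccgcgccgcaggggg
set-2: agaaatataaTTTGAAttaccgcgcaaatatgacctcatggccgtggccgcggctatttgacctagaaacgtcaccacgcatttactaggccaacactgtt
ash-2, weaker summit: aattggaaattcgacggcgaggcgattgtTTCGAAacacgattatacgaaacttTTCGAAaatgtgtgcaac
ash-2, stronger summit: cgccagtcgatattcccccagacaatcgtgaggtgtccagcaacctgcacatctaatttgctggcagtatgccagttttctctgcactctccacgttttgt
mes-4, no summit: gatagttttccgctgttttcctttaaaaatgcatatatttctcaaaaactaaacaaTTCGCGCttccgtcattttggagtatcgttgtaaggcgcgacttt

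DPL-1 IDR peaks lay at 7 of the 10 genes: mes-2, mes-6, met-1, mrg-1, set-2, wdr-5.1 and ash-2. A gene counted when a summit lay within 500 bp of its 5' end, the start of its gene record. Of all protein-coding genes, 11.8% had such a peak (2351 of 19985). The other 3 members, mes-3, mes-4 and set-1, had none. By mark, the count was 2 of 3 H3K27 genes, 2 of 3 H3K36 genes, 0 of 1 H4K20 genes and 3 of 3 H3K4 genes, so each of the 3 marks with several genes had at least 2 with a peak. In the pooled relaxed list, whose weakest regions are background, 9 of the 10 genes had a summit, against 33.0% of all genes, and the exception was mes-4. No test was run over the 10 genes, because they were named with results of these data known.

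**Figure D1:**
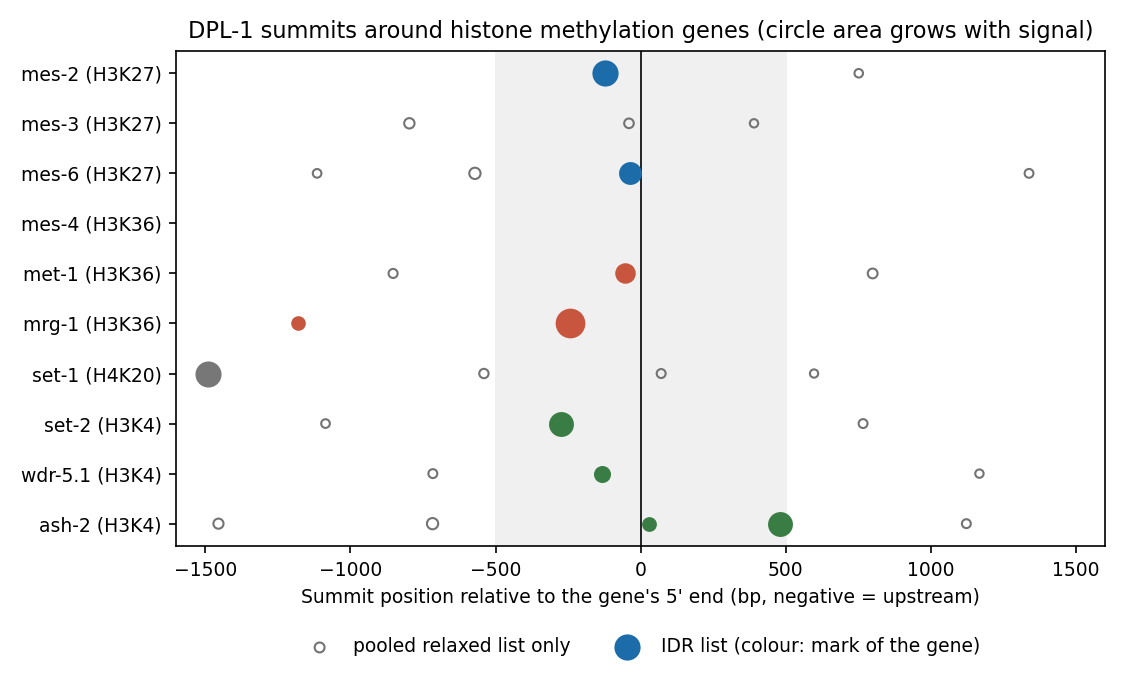
Summits of the pooled relaxed list (open circles) and of the IDR list (filled circles, coloured by the mark of the gene) within 1500 bp of the 5' end of each of the 10 genes, with distance in bp on the horizontal axis, upstream to the left, and circle area growing with signal. The shaded band is the 500 bp window. IDR summits fall in it for 7 genes, mes-4 has no summit of either list, and the filled circle of set-1 lies 1491 bp upstream.

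The Polycomb genes differed among themselves. The mes-2 gene (chromosome II, 14383973 to 14388454, plus strand) had its summit 121 bp upstream, in sequence with no annotated gene, in a peak from 14383739 to 14383966 with signal 244, rank 284 of the 3295. Signal is the authors' measure of peak strength, on a scale that differs between lists, so ranks by signal, with 1 the strongest, were used to set replicates side by side. The summit matched within 100 bp had rank 1506 in replicate 1 (signal 21.03), 172 in the list of replicate 2 (188) and 408 in that of replicate 3 (42.6), so replicate 1 placed this peak far lower than the other replicates. The highest of these ranks was 8.76 times the lowest, where the median ratio over the 1434 IDR peaks at 5' ends found in all 3 lists was 2.63 and 9.14% had a higher ratio. The E2F-like matches printed above for mes-2 are a pair that overlap on opposite strands, centred 26 and 23 bp from the summit. A further E2F-like match lay 93 bp away, and a CHR match 41 bp away.

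The mes-6 gene (chromosome IV, 8511284 to 8513469, plus strand) had its summit 35 bp upstream, the shortest distance among the strongest summits of the 7 genes (peak 8511175 to 8511357, signal 175, rank 540). Replicate 1 gave it rank 981 (signal 27.3), replicate 2 rank 543 (105) and replicate 3 rank 442 (41.2). These ranks spread less than those of mes-2, by a ratio of 2.22. The printed sequence holds a CHR match 20 bp from the summit and no E2F-like match. Just outside the window, 571 bp upstream, the pooled relaxed list had a weaker summit (signal 34.8) that lay 165 bp from the 5' end of the neighbouring gene tag-77 and was below the lowest signal of the IDR list, 45.7.

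At mes-3 (chromosome I, 4996835 to 5003202, plus strand), the lists held weak regions only. The pooled relaxed list had a summit 40 bp upstream with signal 18.6 and rank 10602 of 30000, and a weaker one 391 bp downstream (8.12). Replicate 2 placed its summit 129 bp upstream at rank 14705, replicate 3 placed one 38 bp upstream at rank 23027, and replicate 1 had one only 451 bp downstream, at rank 20929. No position in the window was thus shared within 100 bp by all 3 replicates, and the nearest IDR summit was 29185 bp upstream. The strongest pooled summit near mes-3 lay outside the window, 797 bp upstream (signal 25.7).

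Among the H3K36 genes the values ran from the strongest member peak to none at all. The mrg-1 gene (chromosome III, 12871029 to 12874656, minus strand) had its summit 243 bp upstream (peak 12874763 to 12875002) with signal 327, rank 159 of the IDR list and 139 of the 1833 IDR peaks at 5' ends. Its rank was 415 in replicate 1 (signal 45.6), 125 in the list of replicate 2 (216) and 226 in that of replicate 3 (57.6), the best rank of any member in replicates 2 and 3. This summit also served spcs-2, which encodes a subunit of the signal peptidase complex, and was nearer to the 5' end of that gene, at 132 bp. A weaker IDR peak (signal 48.2, rank 3096) lay 1182 bp upstream of mrg-1, in the 3' untranslated region of cec-7. It had no summit within 100 bp in replicate 1.

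The met-1 gene (chromosome I, 4254197 to 4264699, plus strand) had its summit 55 bp upstream (peak 4254074 to 4254189, signal 132, rank 848). Replicates 1, 2 and 3 gave it ranks 1291, 722 and 1131 (signals 23.4, 88.6 and 24.9), the closest ranks of any member, with a ratio of 1.79. Neither motif was found within 100 bp of this summit. No other protein-coding gene started within 500 bp of it. The IDR summit and that of replicate 3 (54 bp upstream) lay in sequence with no annotated gene. Those of replicates 1 and 2, 119 and 102 bp upstream, lay in an intron of the upstream gene C43E11.12.

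At mes-4 (chromosome V, 13433050 to 13437545, minus strand) no list had a summit within 500 bp, and the only summit within 1500 bp in any relaxed list was one in replicate 3, 748 bp downstream at rank 27772 of 30000. Of all protein-coding genes, 55.8% had no pooled relaxed summit within 1500 bp, and 27.9% had none in any of the 4 relaxed lists. The nearest pooled summits lay 24783 bp upstream and 29764 bp downstream, so mes-4 sat in a stretch of 54.5 kb without one. Stretches at least as long held 21.8% of protein-coding 5' ends, and the median stretch was 18.9 kb. Of the 18 protein-coding genes that start in it, 6 have chemoreceptor names (srd-17, srd-18, srd-19, srv-8, srv-9 and srv-10). The mes-4 promoter window printed above holds the E2F-like letters TTCGCGC, which mes-2 has near its summit. The mes-4 window was placed by distance from the 5' end and not at a summit. Of such promoter windows of all genes, 3.57% hold an E2F-like match, and that of set-1 holds none. The set-1 window does hold CHR matches, and 34.1% of such windows of all genes hold a CHR match.

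The H4K20 gene set-1 (chromosome III, 6450792 to 6452378, minus strand) had no IDR summit in the window, but a strong one beyond it. Within 500 bp, the pooled relaxed list had a summit 71 bp downstream, in coding sequence, with signal 13.0 and rank 17190. Replicate 1 had 2, the nearer 7 bp downstream at rank 4760, and replicates 2 and 3 had none in the window. The IDR summit lay 1491 bp upstream (peak 6453754 to 6453971, signal 242, rank 291) and had ranks 622, 261 and 309 in replicates 1, 2 and 3 (signals 35.6, 155 and 48.6). Its nearest 5' end was that of the divergent gene jhdm-1, which encodes a protein with a JmjC domain, at 614 bp, so it counted for neither gene.

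All 3 H3K4 genes had an IDR peak. The set-2 gene (chromosome III, 4922427 to 4930204, minus strand) had its summit 273 bp upstream (peak 4930326 to 4930551, signal 216, rank 355), with rank 229 in replicate 1 (signal 63.7), 455 in replicate 2 (116) and 671 in replicate 3 (33.5). Replicate 1 placed this peak highest, as it did that of wdr-5.1. At mes-2, mes-6, met-1, mrg-1 and the stronger ash-2 summit, replicate 1 gave the lowest place. A CHR match lay 38 bp from the set-2 summit and an E2F-like match 55 bp away, just beyond the 50 bp window. The wdr-5.1 gene (chromosome III, 3705285 to 3706784, plus strand) had the weakest call, 134 bp upstream (peak 3704999 to 3705302, signal 78.9, rank 1770). Replicate 1 gave it rank 1124 (signal 25.5), replicate 2 rank 3094 (31.2) and replicate 3 rank 1500 (21.02), so replicate 2 held it only just within its strongest 3295 peaks. No E2F-like match lay within 100 bp of this summit, and a CHR match lay 81 bp away.

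The ash-2 gene (chromosome II, 11979838 to 11989050, plus strand) had a pair of IDR summits in the window, which 38 of the 2351 genes with a peak had (1.62%). The weaker summit lay 28 bp downstream of the start of the gene record and 22 bp from the start of the divergent gene Y17G7B.20 (peak 11979714 to 11980017, signal 49.98, rank 2980). Its ranks in replicates 1, 2 and 3 were 3439, 5288 and 1406, so only replicate 3 had it among its strongest 3295. The stronger summit lay 482 bp downstream of that start, near the edge of the window, in an intron of ash-2 (peak 11980219 to 11980440, signal 216, rank 356). It too served Y17G7B.20, whose 5' end was nearer, at 476 bp. Its ranks were 581, 381 and 279 (signals 36.8, 127 and 50.8), closer together than those of the weaker summit. The annotation gives 5 transcript starts for ash-2, and the other 4 lie 106 to 145 bp downstream of this stronger summit. Measured from those starts, the stronger ash-2 summit was an upstream one like those of the other members.

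**Figure D2:**
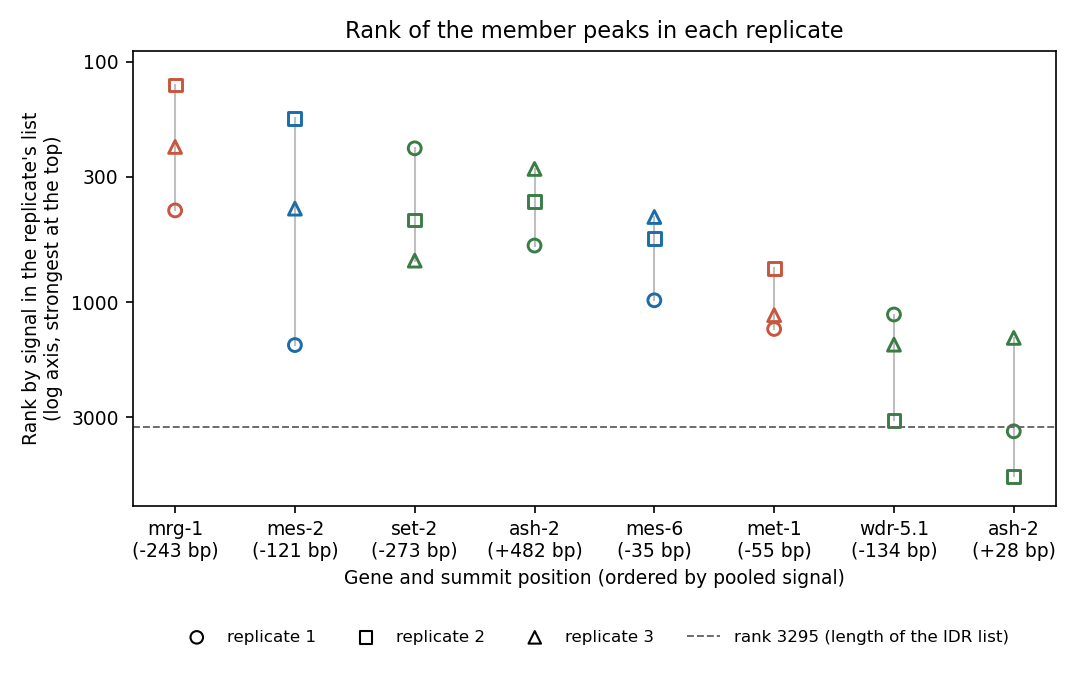
Rank by signal in each replicate's relaxed list (log axis, strongest at the top) for the 8 IDR summits within 500 bp of a member's 5' end, ordered by signal in the IDR list and coloured by mark as in the map of summits, with replicate 1 as circles, replicate 2 as squares and replicate 3 as triangles. Grey lines span the replicates and the dashed line is rank 3295. The mes-2 summit has the widest span, from 172 to 1506, and the weaker ash-2 summit crosses the dashed line.

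Replicate by replicate, the same 7 genes had a summit among the strongest 3295 peaks within 500 bp of the 5' end. Of all protein-coding genes, 9.94% did in replicate 1, 11.7% in replicate 2 and 10.3% in replicate 3. With only the IDR peaks that were among the strongest 3295 of all 3 replicates, the same 7 genes had a peak, against 5.99% of all genes. The IDR list was derived from the replicate lists, so this overlap is partly built in. The strongest peak per gene had a median signal of 216 over these 7 genes, against 102 over all genes with an IDR peak, and 6 of the 7 were above that median. The marks overlapped in strength: signal was 175 and 244 for the H3K27 genes, 132 and 327 for the H3K36 genes, and 78.9 to 216 for the H3K4 genes. Differences between marks were not tested, since each rests on at most 3 genes.

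Most of the 7 genes had their peak just upstream, and they differed in gene order. Of the 7 strongest summits, 6 lay upstream of the gene record, in sequence with no annotated gene, at a median distance of 134 bp over the 7, against 193 bp over all pairs of a gene and an IDR summit, of which 90.2% were upstream. All 10 genes are autosomal, and 13.7% of protein-coding genes are on X. Of the 7 genes, 4 were not the first of a run of same-strand genes with at most 1000 bp between gene records, where 30.03% of all protein-coding genes and 22.2% of those with an IDR peak were not. In 3 of these runs the first gene (sdz-26 before mes-2, C26E6.12 before set-2 and C14B1.2 before wdr-5.1) had no IDR peak while the member had its own, and in the run of met-1 the first gene, tufm-2, had one too. The gene next to wdr-5.1 on its upstream side, C14B1.3, also had an IDR peak, and those next to mes-2, set-2 and met-1 had none. The gap to the next gene upstream was 594 bp for mes-2, 398 bp for set-2, 227 bp for wdr-5.1 and 58 bp for met-1.

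The base composition of these summits varied. GC content within 50 bp was 36.6% at mes-2, 49.5% at mes-6, 53.5% at met-1, 51.5% at mrg-1, 45.5% at set-2, 43.6% at wdr-5.1, and 50.5% and 40.6% at the stronger and the weaker ash-2 summit, against a median of 45.5% over IDR summits at 5' ends and 33.7% over promoter windows of the same length (centred 150 bp upstream) of all genes. The mes-2 summit, the one with the E2F-like pair, had the lowest GC content of the 8. An E2F-like match was present at 1 of the 8 member summits, against 17.9% of IDR summits at 5' ends and 3.57% of promoter windows. A CHR match was present at 4 of the 8 (mes-2, mes-6, set-2 and the weaker ash-2 summit), against 31.2% and 34.1%. A match in these letters is not evidence of a bound site.

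Other genes of histone methylation were read the same way. Of 37 such genes, all matched by symbol, 11 had one at the 5' end (29.7%, against the 11.8% of all genes given above). The strongest was at set-16, which encodes an MLL-like H3K4 methyltransferase (187 bp upstream, signal 462, ranks 69, 128 and 53 in replicates 1, 2 and 3), in a peak it shared with drr-2. Next was dot-1.1, an H3K79 methyltransferase gene (156 bp upstream, signal 319, ranks 164, 254 and 110). The set-4 gene, whose enzyme adds further methyl groups to H4K20 after SET-1, had a peak 282 bp upstream with signal 276 and ranks 266, 227 and 406, so of the pair of H4K20 methyltransferase genes it was set-4 and not set-1 that had one in the window. The demethylase gene jmjd-1.2 had one 475 bp upstream (signal 204, ranks 1065, 368 and 458), shared with F29B9.11, and dpy-30, a COMPASS subunit gene, had one 381 bp upstream (signal 80.1) that was matched in replicate 2 only, at rank 1340.

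By class, 5 of 10 H3K4 methylation genes had a peak, 0 of 4 H3K4 demethylation genes, 1 of 7 genes of H3K27 demethylation or reading, 0 of 2 H3K36 genes, 3 of 10 H3K9 genes, 1 of 2 H4K20 genes and 1 of 2 H3K79 genes. The remaining genes with a peak, named after their values were seen, were set-17, hcf-1 and swd-2.2 for H3K4, the last pair sharing 1 summit by divergent starts, and arle-14, lin-61 and cec-3 for H3K9, with signals of 57.2 to 74.3. The peaks of these 6 genes each served more than 1 protein-coding gene, among them bub-1 beside lin-61. The H3K4 demethylase genes without one were spr-5, lsd-1, amx-1 and rbr-2, and the H3K36 genes were jmjd-2 and set-18. None of the 8 genes on X had a peak, where 6.04% of all X-linked genes did. Of the 37 genes, 5 had an IDR peak that was among the strongest 3295 of all 3 replicates (13.5%, against 5.99% of all genes).

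**Figure D3:**
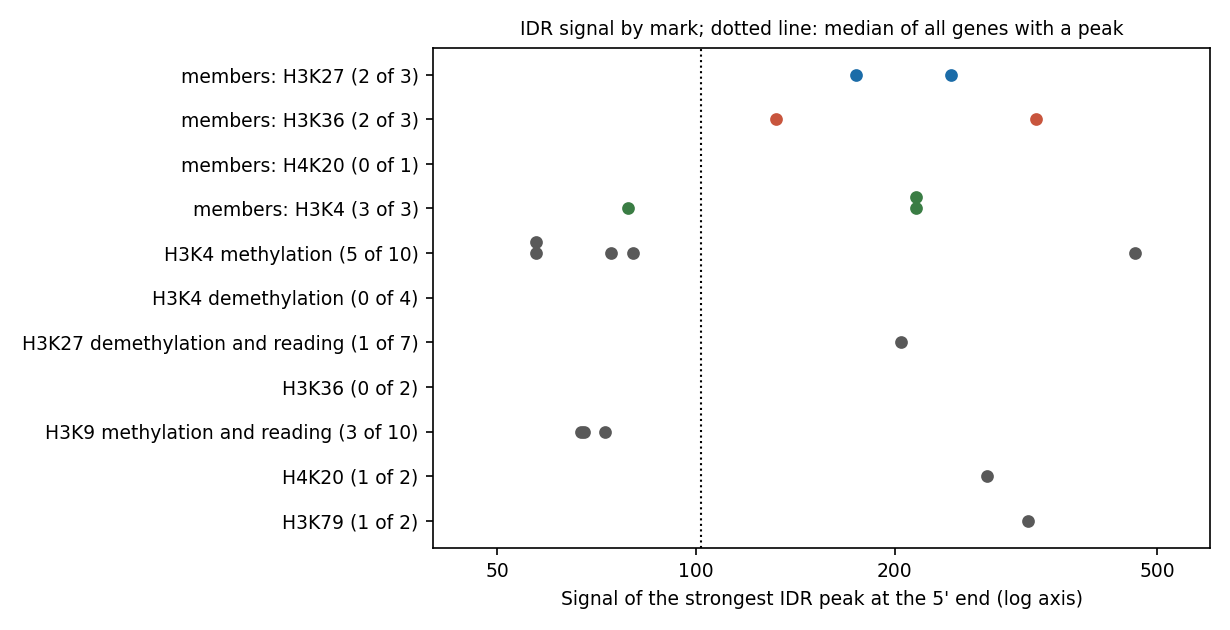
Signal of the strongest IDR peak within 500 bp of the 5' end (log axis), 1 point per gene, for the members by mark (coloured) and for the other histone methylation genes by class (grey), with the number of genes with a peak of how many beside each label and near-equal points set apart vertically. The dotted line is the median over all genes with an IDR peak, 102. Of the members, 6 lie to its right, and the 3 H3K9 genes lie to its left.

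The genes whose peaks were most like that of mrg-1, by Euclidean distance of log10 rank over the 3 replicates, were mrpl-55, which encodes a mitochondrial ribosomal protein (ranks 470, 127 and 198, distance 0.0792), and ify-1, the worm securin gene, and rpl-22, a ribosomal protein gene, which share 1 peak (ranks 384, 119 and 278, distance 0.0984). Their signals were 308 and 320, against 327 at mrg-1.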

How the data were processed

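The authors deposited peak lists in narrowPeak form on ce11 and ce10. Per the text deposited with each sample, relaxed lists came from the alignments of a replicate, or of all 3 pooled, with 1 further file, and the optimal IDR list was derived from these lists. For aligner and peak caller, no name or version is given in the labels or headers. The signal value of each peak is as deposited by the authors. The score in the ninth column, also deposited, and the 5 ce10 lists were not used, since the reference is ce11 (WBcel235), and no coordinates were converted. Whether replicates share a batch is not stated.

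Summits and 5' ends of the Ensembl 115 gene records were compared within 500 bp, summits between replicates within 100 bp, and motifs searched on both strands within 50 bp, in RefSeq sequence of WBcel235, with Python 3.11.15, pandas 2.3.3 and numpy 2.4.6. Coordinates are 1-based. The functions were tested on simulated data. No sample comparison exists, so there is no p-value. The members and lists were chosen with earlier results of these data known. The rule for named genes took the members, genes sharing their peaks, the 5 strongest other pathway genes and the 3 genes most like the strongest member. Neighbouring genes, genes of the stretch around mes-4 and the remaining pathway genes named were chosen after their values were seen. Alternatives were other windows, lists, start definitions and replicate subsets.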

Additional observations from a re-analysis of the deposited data

How the results depend on the processing

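The count of 7 of 10 members with an IDR peak was 5 to 9 under all alternatives but one. It was 7 when only IDR peaks among the strongest 3295 of both replicates of a pair were kept, for every pair. The IDR list itself, made from all replicates, was not remade, so this does not show the count with a replicate left out. The 5 came from counting only the nearest gene of each peak, which left out mrg-1 and ash-2 and gave 9.05% of all genes, against 11.8%. Counting the first gene of each run gave 4 of 10 and 15.2% of all genes, since the runs of mes-2, set-2 and wdr-5.1 have no IDR peak at the first gene. The count of 11 of 37 other histone methylation genes depended more on the settings. With a 250 bp window it was 7 (7.71% of all genes, and 6 of 10 members), and with the pooled relaxed list 24 (33.0% of all genes). It was 5 with IDR peaks among the strongest of all 3 replicates (5.99%) and 4 with the stronger 50% of the IDR list (7.33%). Counting only the nearest gene gave 7 (9.05%). Keeping only IDR peaks among the strongest 3295 of both replicates of a pair gave 5 to 6 (6.28% to 7.58%). That setting adds a strength filter, as the setting with all 3 replicates does. The share of all genes thus moved with the settings as well. The lists among these settings differ in length, and the window and nearest-gene settings assign the same 3295 peaks to fewer genes. An E2F-like match was found at 2 of 8 member summits within 100 bp and 2 of 8 in whole peaks, against 1 within 50 bp, the added one being that of set-2. A CHR match was found at 6 of 8 in both, against 4 within 50 bp. Longer windows have more room for a match, and no share over all IDR summits is given here for them. The motif counts for IDR peaks kept by a pair of replicates were chosen after seeing the data. Median replicate ranks of the member peaks kept their values with summits matched within 200 bp, and within 50 bp except for met-1 and wdr-5.1, which then lacked a match in replicate 1. No paired analysis was possible because all samples belong to 1 group. Depth per replicate is unknown, so a gene without a peak, such as mes-4, had none detectable in these lists, which does not show that DPL-1 was absent there.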
